A study of Homo sapiens with 11 samples.

Results

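HEK293T cells treated with the compound AA132 at 30 µM were compared with HEK293T cells treated with the same compound at 6 µM. The comparison uses every library of these 2 doses, 6 of the 33 libraries and 2 of the 11 conditions of the study. It asks which transcripts changed between 6 µM, where chaperones of the endoplasmic reticulum (ER) were already above vehicle, and the highest dose given. HEK293T is an established human embryonic kidney line. All cells were labelled wild type and all were treated for 6 h. The other conditions were vehicle (0.1% DMSO), AA132 at 0.1, 0.3, 1, 3, 10 and 15 µM, the related compound AA147 at 10 µM, and thapsigargin, an inhibitor of the ER calcium pump, at 500 nM. The labels list 1 sample per condition, and the table of counts holds 3 numbered libraries for each. Nothing in the labels says whether these came from separate cultures, so n counts libraries and p-values measure the spread between libraries, which may be technical.

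Cells that accumulate misfolded protein in the ER raise the transcripts of chaperones and folding enzymes through the transcription factors ATF6 and XBP1s. A separate branch runs through kinases that phosphorylate the translation factor eIF2α. PERK is the kinase of this branch at the ER, and the factor ATF4 then raises genes of amino acid uptake and synthesis, a program called the integrated stress response. The transcription factor NRF2 is released when its partner KEAP1 is modified on cysteines, and it raises genes of glutathione synthesis, iron handling and detoxification. YAP with TEAD, and SRF with its cofactor MRTF, act on other genes, many of which belong to the cytoskeleton and cell adhesion.

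The 30 µM libraries held 36.36 to 36.84 M counts and the 6 µM libraries 37.28 to 37.74 M, so depth differed little between the doses. Values are CPM, counts scaled to 1 M per library with TMM factors, and a gene is called when the edgeR quasi-likelihood test gives a Benjamini-Hochberg adjusted p under 0.05 over 17793 genes tested. Numbered libraries were not alike within counting noise. At 6 µM the chi-square per degree of freedom between pairs of libraries was 4.48 to 4.99, and at 30 µM it was 6.46 between libraries 1 and 2 but 18.8 and 13.4 for library 3 against these. Library 3 at 30 µM also stood apart by transcript length. Its log2 CPM fell by 0.06 per doubling of transcript length relative to the gene means, where the other 5 libraries lay between -0.007 and 0.018. Vehicle library 1 stood apart more strongly, at -0.138. The 1 µM library 1, 3 µM library 3 and 10 µM library 1 did not resemble the other libraries of their doses, and AA147 library 1 also stood apart, with a chi-square per degree of freedom of 22.2 and 23 against the others of its condition. HMOX1 was 39.8 CPM in 1 µM library 1 against 11.5 and 12.1 in the others, and 14.2 CPM in 3 µM library 3 against 49.3 and 43.9. Each of these 2 libraries was thus nearer in HMOX1 to the other dose, so their dose labels are in doubt. They are plotted under their labels. Levels below 6 µM and at 10 µM are therefore shown by library. Of 10 marker genes of other cell types, 7 had under 0.2 CPM in each of the 6 libraries (PTPRC and DCN at 0), KRT14 was at most 0.292 CPM, LUM was at 0.694 to 1.07 CPM and EPCAM was at 123 to 143 CPM. Of 8 genes used to check the HEK293T label, 7 were above 40 CPM in all 6 libraries, while PAX2 was at 0.586 to 1.44 CPM.

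Between 6 and 30 µM, 638 genes were called, 3.59% of those tested. Of these, 281 (1.58%) were higher and 357 (2.01%) were lower at 30 µM. Most of the steps were small. Genes called higher had a median log2 fold change of 0.33 and those called lower one of -0.37, and 29 of the 638 changed by at least 1 on the log2 scale, 10 upward and 19 downward. The libraries of the 2 doses did not overlap for 635 of the 638 genes, beside 27.5% of all genes tested. Among rises the largest named ones were those of HMOX1, OSGIN1 and SLC7A11, and among falls that of EDN1. Leaving out 1 of the 6 libraries lowered the number called to between 198 and 352, with 225 called without 30 µM library 3 and 198 without 6 µM library 1. Leaving out vehicle library 1, which has no part in the contrast but adds to the shared estimate of spread, raised it to 1205. Leaving out that library together with the 3 AA132 libraries that did not resemble their doses, with AA147 library 1 kept, raised it to 1692, 745 higher and 947 lower.

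**Figure D1:**
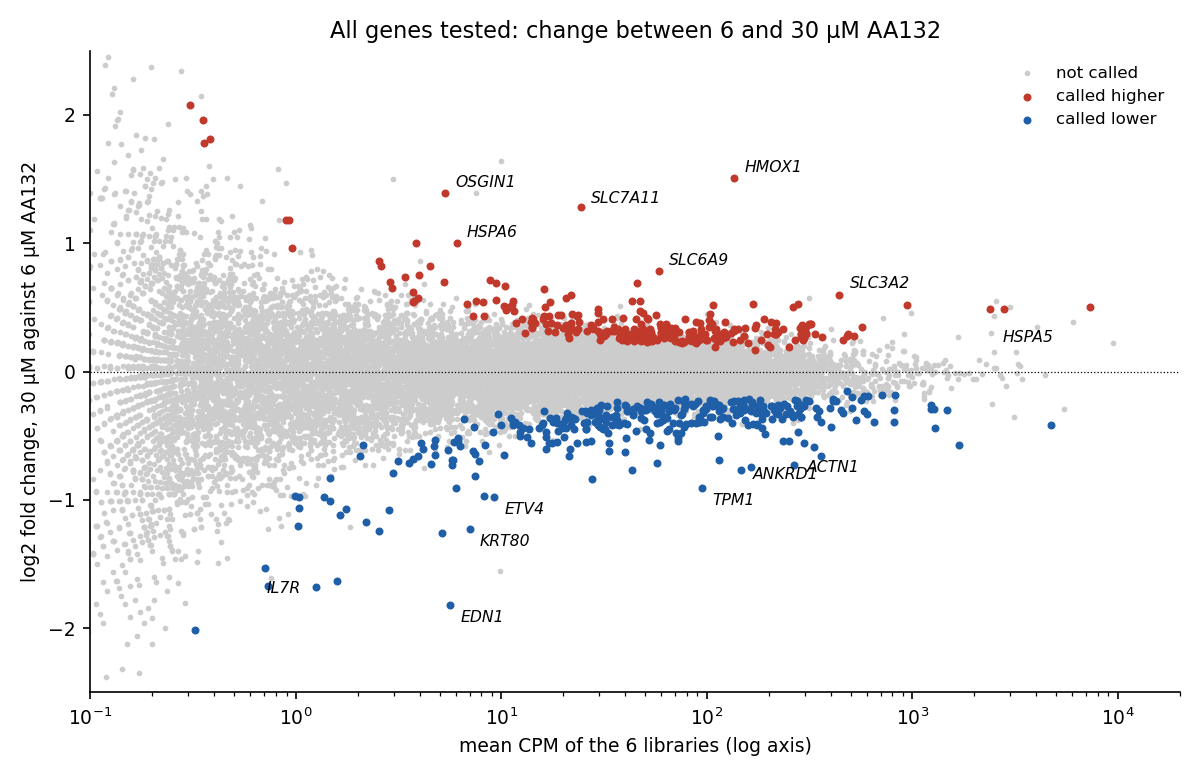
Each point is 1 of 17793 genes tested, with the mean CPM of the 6 libraries on a log x axis and the log2 fold change of 30 µM against 6 µM AA132 on the y axis. Red and blue points are the 281 genes called higher and the 357 called lower, HSPA5 lies near 0 beside named genes that changed, and 128 genes, 4 of them called, lie outside the axes.

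The ER chaperones changed little between these doses. None of 24 ER chaperones and folding enzymes was called between 6 and 30 µM by edgeR, beside 3.59% of all genes tested. Of the 24, 6 had an unadjusted p under 0.05, beside 3060 of 17793 genes tested. The list median was 0.04, beside -0.0006 over all genes tested. The median for the same 24 genes between vehicle and 6 µM was 0.46, and 15 of them were called higher at 6 µM than in vehicle, where 190 genes (1.07%) were called, 154 (0.866%) of them higher. HSPA5, the main Hsp70 chaperone of the ER lumen (chr9:125234853-125241382, 8 exons), was at 1025, 973 and 881 CPM in vehicle, at 2406, 2376 and 2333 CPM at 6 µM, and at 2450, 2646 and 2814 CPM at 30 µM. Every 30 µM library thus lay above every 6 µM library, by little beside the distance of both from vehicle. This difference, 0.15 on the log2 scale (95% interval -0.16 to 0.47), had an adjusted p of 0.681. HSP90B1, the ER Hsp90, changed by 0.09 (95% interval -0.08 to 0.27). SDF2L1, a cofactor of HSPA5, changed by -0.05 (95% interval -0.28 to 0.19) and its libraries overlapped. DNAJB9, a cochaperone of HSPA5, differed by 0.21 with an adjusted p of 0.187. PDIA4, a disulfide isomerase, had the largest difference of the list, 0.29 (95% interval 0.07 to 0.51), with an adjusted p of 0.132. These intervals leave room for steps of the size that many called genes showed. In the fit without the 4 libraries outside the contrast named above, PDIA4, HYOU1 and DNAJB11 were called higher, by 0.29, 0.23 and 0.20. That fit called 1692 of 18038 genes tested, and HSPA5 was not among them (adjusted p = 0.0686). Thapsigargin gave 10778 to 11322 CPM of HSPA5, so the level at 30 µM AA132 was not the highest the cells reached in this study.

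The promoter of HSPA5 is shown because it carries the ER stress response element, CCAAT and CCACG with 9 unspecified bases between them, the site through which ATF6 is known to act. It is the RefSeq window of 250 bases before to 50 after the gene start in GRCh38.p14, chr9:125241294-125241593, minus strand, and the capitals mark the element. The element was found on either strand in 0.0769% of 35116 such windows. No window among 222 of the genes called higher, or among 281 of the genes called lower, held it. The window of HSP90B1 held 2 matches, and those of DNAJB9, PDIA4 and SDF2L1 held none.
HSPA5: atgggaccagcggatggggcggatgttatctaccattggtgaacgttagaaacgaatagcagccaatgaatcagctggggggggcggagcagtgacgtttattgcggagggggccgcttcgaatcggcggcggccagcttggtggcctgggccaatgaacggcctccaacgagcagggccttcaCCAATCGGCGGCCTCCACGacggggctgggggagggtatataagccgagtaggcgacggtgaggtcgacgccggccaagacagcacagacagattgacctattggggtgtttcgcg

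Genes of ER-associated degradation and translocation held some small rises. Of 21 tested, 5 rose (SEC61A1, SSR1, SSR3, DERL2 and SEC24D), beside 1.58% of all genes tested. None was called lower, and the list median was 0.22. SEC61A1, the channel subunit through which proteins enter the ER, was at 189, 193 and 187 CPM at 6 µM and at 230, 234 and 250 CPM at 30 µM, a log2 fold change of 0.33 (SE 0.07, adjusted p = 0.00406). SSR1, a subunit of the translocon-associated complex, rose from 267, 255 and 255 CPM to 316, 315 and 319 CPM (log2 fold change 0.29, SE 0.06, adjusted p = 0.00403). Both genes had libraries at 6 µM that were near vehicle, where SEC61A1 was at 166 to 191 CPM and SSR1 at 255 to 286 CPM. DERL2, a component of the degradation machinery, rose by 0.33 (SE 0.07, adjusted p = 0.0111), a call lost without 30 µM library 3 (adjusted p = 0.0745) or 6 µM library 2 (0.0656). HERPUD1, another degradation factor, differed by 0.37 with an adjusted p of 0.0544, and of 0.000171 without the same 4 libraries outside the contrast. SSR3 and SEC24D rose by 0.27 and 0.29 and lost the call in each of the 6 fits that left 1 library out (adjusted p up to 0.193), and 2 or 3 members were called in those fits in place of 5.

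The integrated stress response, the longest list tested, gave the largest count of any list. Of 39 members tested, 18 rose and none was called lower, beside 1.58% and 2.01% of all genes tested. The log2 fold change was positive for 36, beside 8860 of 17793 genes tested, and the list median was 0.28. The median for the same genes between vehicle and 6 µM was 0.26, with 11 called higher there. With 1 of the 6 libraries left out, 14 to 18 members were called, and 13 of the 18 kept their call in all 6 such fits. ATF4 itself, the transcription factor at the head of the program, was at 521, 475 and 499 CPM at 6 µM and at 607, 603 and 693 CPM at 30 µM. Library 3 was the highest of the 30 µM libraries. The log2 fold change was 0.35 (SE 0.07, adjusted p = 0.00433), and without library 3 it was 0.27 with an adjusted p of 0.0581. DDIT3, which encodes the factor CHOP, differed by 0.36 (95% interval 0.01 to 0.70, adjusted p = 0.269) after a rise of 0.98 between vehicle and 6 µM.

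Of 9 amino acid transporter genes in this list 6 rose, while SLC7A1, SLC38A2 and SLC43A1 differed by 0.11, 0.24 and 0.19 and were not called. Of these, SLC38A2 was called higher in the fit without the same 4 libraries outside the contrast (adjusted p = 0.00308). SLC7A11, the cystine importer (chr4:138164097-138242349, 12 exons, also counted in the NRF2 list), was at 13.9, 15.4 and 13.3 CPM at 6 µM and at 41.37, 39.98 and 22.23 CPM at 30 µM. The groups did not overlap, but 30 µM library 3 sat far closer to the 6 µM libraries than the others did. This was a log2 fold change of 1.28 (SE 0.27, adjusted p = 0.00611). The transcript model of SLC7A11 is 9645 bases long, and library 3 was the library with lower counts for long transcripts. With an offset for transcript length fitted to each library the log2 fold change was 1.32 (adjusted p = 0.000837). Without that library the log2 fold change was 1.51 (adjusted p = 0.00397). The cause of the lower SLC7A11 value in library 3 was not tested. SLC3A2, the heavy chain that SLC7A11 and SLC7A5 need at the cell surface, rose from 365, 333 and 353 CPM to 525, 508 and 564 CPM (log2 fold change 0.60, SE 0.12, adjusted p = 0.00502). Here library 3 was the highest of the 30 µM libraries. SLC6A9, a glycine transporter, rose from 41.2, 43.3 and 44.5 CPM to 71.6, 70.4 and 79.1 CPM (0.78, SE 0.15, adjusted p = 0.00252). SLC7A5, SLC1A4 and SLC1A5, carriers of neutral amino acids, rose by 0.40, 0.46 and 0.29. The SLC7A5 call was lost without 6 µM library 1 (adjusted p = 0.0570) and the SLC1A5 call in 5 of the 6 fits without 1 library (up to 0.108).

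Some enzymes of amino acid and one-carbon metabolism rose. PHGDH, PSPH, ALDH1L2 and GPT2 of the same list differed by 0.16, 0.13, 0.26 and 0.15 and were not called. None of the transfer RNA synthetases AARS, GARS, WARS, SARS and NARS was called either. In the fit without the same 4 libraries outside the contrast, PHGDH, GARS and SARS were called higher, by 0.16, 0.21 and 0.20. Their adjusted p-values there were 0.0172, 0.0115 and 0.00893, and the others of these genes were again not called. ASNS, asparagine synthetase, was at 212, 220 and 222 CPM at 6 µM and at 300.0, 301 and 327 CPM at 30 µM (log2 fold change 0.50, SE 0.07, adjusted p = 0.000126). Its vehicle libraries, at 175 to 201 CPM, lay below both doses. CTH, which makes cysteine from cystathionine, rose by 0.69 and PCK2, the mitochondrial phosphoenolpyruvate carboxykinase, by 0.55. PSAT1, SHMT2 and MTHFD2, enzymes of serine and one-carbon metabolism, rose by 0.37, 0.28 and 0.35. The SHMT2 call was lost without 30 µM library 3 or any 1 of the 6 µM libraries (adjusted p up to 0.0824). Among feedback members, TRIB3, a pseudokinase that binds ATF4 and CHOP, rose by 0.55 (SE 0.11, adjusted p = 0.00465), and DDIT4 and SESN2, which restrain the kinase complex mTORC1, rose by 0.71 and 0.45. XPOT, which exports transfer RNA from the nucleus, rose by 0.29. DDIT4 had not risen at 6 µM, where its libraries, at 6.17 to 7.41 CPM, overlapped those of vehicle, at 5.81 to 8.31 CPM.

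CHAC1, an enzyme that degrades glutathione, rose from 6.70, 8.64 and 8.68 CPM to 12.4, 13.5 and 12.2 CPM, a log2 fold change of 0.67 (SE 0.15, adjusted p = 0.00978). The call was lost only when 6 µM library 1, the lowest of the 6, was left out (adjusted p = 0.0918). Its promoter is shown as a window of a called integrated stress response gene with the core of the ATF4 composite element. The core, TGATGNAA on either strand, is marked by capitals. The window is from RefSeq in GRCh38.p14, chr15:40953221-40953520, plus strand, and the element begins 209 bases before the gene start. The same core was present in 3.62% of all 35116 windows, in 2.70% of 222 windows of genes called higher and in 1.78% of 281 windows of genes called lower. The window of ASNS also held 1 match. Those of the called list members ATF4, TRIB3, DDIT4, CTH and SLC6A9 held none.
CHAC1: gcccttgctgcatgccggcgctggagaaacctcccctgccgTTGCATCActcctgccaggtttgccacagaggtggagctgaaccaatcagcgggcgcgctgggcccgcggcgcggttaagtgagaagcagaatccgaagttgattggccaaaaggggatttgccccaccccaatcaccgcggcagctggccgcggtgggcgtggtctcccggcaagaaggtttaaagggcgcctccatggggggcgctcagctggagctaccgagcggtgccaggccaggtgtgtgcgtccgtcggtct

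The NRF2 and oxidative stress list held the 3 largest rises among the listed genes called, those of HMOX1, OSGIN1 and SLC7A11. Of 37 members tested (of 40 listed), 8 rose and none was called lower, beside 1.58% and 2.01% of all genes tested. The log2 fold change was positive for 31, beside 8860 of 17793 genes tested, and the list median was 0.15. With 1 of the 6 libraries left out, 5 to 8 members were called. HMOX1, heme oxygenase, which breaks down heme (chr22:35380361-35394214, 5 exons), was at 16.4, 11.1 and 11.9 CPM in vehicle. It was at 68.8, 76.3 and 66.4 CPM at 6 µM, at 154, 159 and 153 CPM at 15 µM and at 208, 189 and 205 CPM at 30 µM. Each step lay clear of the one before it. The log2 fold change between 6 and 30 µM was 1.51 (SE 0.31, adjusted p = 0.00439), a mean level 2.85-fold higher, and that between vehicle and 6 µM was 2.43 (adjusted p = 4.36e-05). AA147 gave 50.4, 32.9 and 33.1 CPM and thapsigargin 22.4, 29.3 and 24.9 CPM, so 30 µM AA132 held the highest HMOX1 of any condition. OSGIN1, an oxidative stress induced growth inhibitor, rose from 2.97, 2.52 and 3.29 CPM to 6.77, 7.19 and 9.13 CPM (log2 fold change 1.39, SE 0.21, adjusted p = 0.000342). It had not been called at 6 µM against vehicle (0.76, adjusted p = 0.125).

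Some members of glutathione and iron metabolism rose. GCLC, the catalytic subunit for glutathione synthesis, and GSR, glutathione reductase, differed by 0.15 and 0.13 and were not called. GCLM, the modifier subunit of the enzyme that starts glutathione synthesis, was at 32.6, 37.6 and 34.4 CPM at 6 µM and at 59.4, 58.9 and 50.6 CPM at 30 µM (log2 fold change 0.69, SE 0.14, adjusted p = 0.00412). FTL and FTH1, the light and heavy chains of ferritin, rose by 0.53 and 0.39, and the FTH1 call was lost without 30 µM library 3 or without 6 µM library 1 or 3 (adjusted p up to 0.102). FTL went from 225 to 228 CPM at 6 µM to 312, 324 and 344 CPM at 30 µM (SE 0.09, adjusted p = 0.00108). SQSTM1, an autophagy receptor that also binds KEAP1, rose by 0.36 (adjusted p = 0.0106). That call was lost without 30 µM library 3 (0.0655) or 6 µM library 1 (0.0622). NQO1, a quinone reductase, rose by 0.53 (adjusted p = 0.0308), a call lost in 5 of the 6 fits that left 1 library out (up to 0.163, kept only without 6 µM library 2). TXNRD1 and SRXN1, reductases of the thioredoxin and peroxiredoxin systems, differed by 0.25 and 0.37 with adjusted p-values of 0.165 and 0.111, after rises of 0.59 and 0.74 between vehicle and 6 µM. Both were called higher in the fit without the same 4 libraries outside the contrast (adjusted p = 0.00106 and 0.0165), while GCLC and GSR were not (0.0518 and 0.141).

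The promoter of GCLM is shown as that of a called NRF2 gene with the core antioxidant response element, TGACNNNGC on either strand, which capitals mark. It is the RefSeq window in GRCh38.p14, chr1:93909381-93909680, minus strand, with the element 34 bases before the gene start. The core was present in 13.3% of all windows, 15.3% of windows of genes called higher and 12.8% of windows of genes called lower, shares that lay close together. The windows of OSGIN1, NQO1 and SQSTM1, also called in this list, did not hold it.
GCLM: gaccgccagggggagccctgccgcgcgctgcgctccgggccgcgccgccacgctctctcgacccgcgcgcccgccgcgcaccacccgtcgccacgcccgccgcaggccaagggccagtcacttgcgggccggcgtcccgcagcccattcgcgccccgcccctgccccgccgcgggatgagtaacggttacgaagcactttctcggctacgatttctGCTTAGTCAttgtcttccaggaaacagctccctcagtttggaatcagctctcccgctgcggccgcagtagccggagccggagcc

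**Figure D2:**
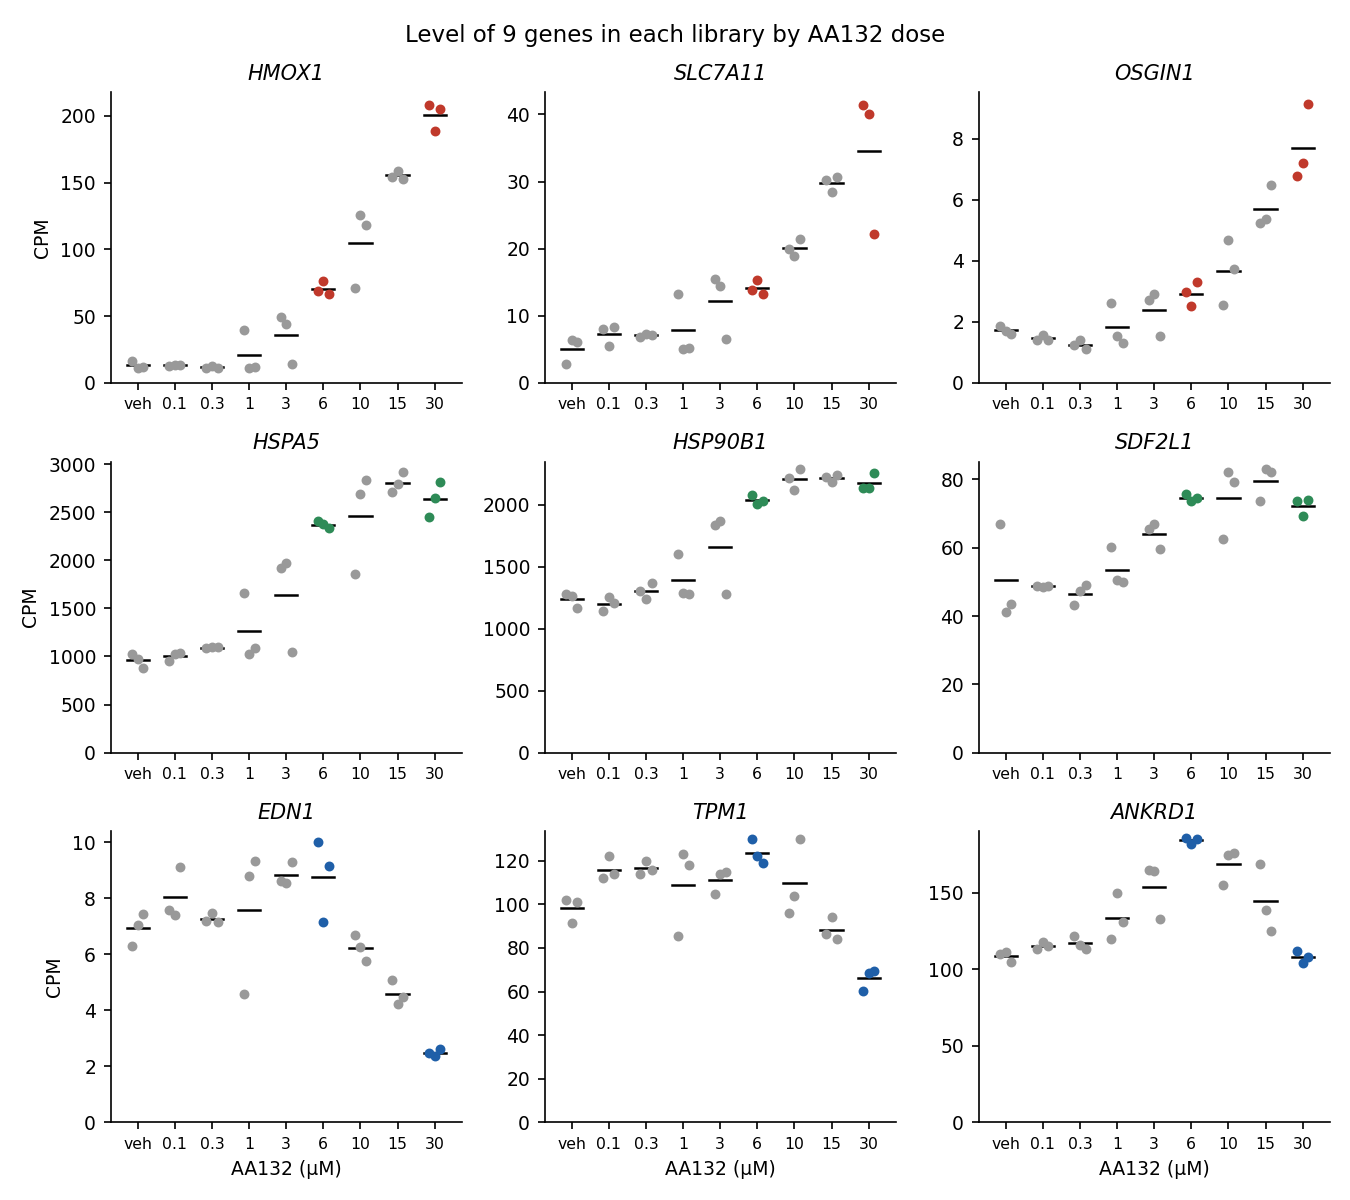
CPM of 9 genes (y axes from 0) in each library of vehicle (veh) and of 8 AA132 doses on the x axis, with black bars at the mean of 3 libraries and the 6 and 30 µM libraries coloured. HMOX1 and OSGIN1 were highest at 30 µM, SLC7A11 was lower in 1 of its 30 µM libraries at 22.2 CPM, the ER genes HSPA5, HSP90B1 and SDF2L1 stayed near their 6 µM level, and EDN1, TPM1 and ANKRD1 fell from their 6 µM level.

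Few heat shock genes were called. Of 25 tested, only HSPA6 was called, beside 3.59% of all genes tested, and the list median was 0.00. An unadjusted p under 0.05 was found by edgeR for 9 of the 25, beside 3060 of 17793 genes tested. HSPA6, an inducible Hsp70 of the cytosol with 1 exon, rose from 3.28, 4.51 and 4.33 CPM to 8.34, 7.54 and 8.30 CPM (log2 fold change 1.00, SE 0.22, adjusted p = 0.0104). Without 6 µM library 1, the lowest, the log2 fold change was 0.87 and the call was lost (adjusted p = 0.0878). HSPA1A, the main inducible Hsp70, went from 2122, 2115 and 2015 CPM to 3033, 2957 and 3144 CPM with no overlap, a log2 fold change of 0.55 with an adjusted p of 0.0754. HSPA1B, a near-identical copy, differed by 0.50 (adjusted p = 0.0785), and reads of these 2 genes cannot be divided between them with certainty. DNAJB1 and BAG3, cochaperones of Hsp70, differed by 0.18 and 0.17 with adjusted p-values of 0.126 and 0.401. Without the same 4 libraries outside the contrast, 5 members were called, 4 higher and 1 lower, beside 1692 of 18038 genes tested in that fit. HSPA1A, HSPA1B and DNAJB1 were among those higher (adjusted p = 5.03e-07, 9.19e-07 and 0.0266).

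EDN1, the vasoconstrictor peptide endothelin 1 (chr6:12290361-12297194, 5 exons), fell more than any other gene named by the rule for falls and had the smallest adjusted p of the named genes. It was at 10.0, 7.14 and 9.14 CPM at 6 µM, at 5.07, 4.24 and 4.48 CPM at 15 µM and at 2.48, 2.37 and 2.61 CPM at 30 µM. Vehicle libraries, at 6.29, 7.03 and 7.45 CPM, lay above those at 15 µM and overlapped those at 6 µM. The 30 µM libraries were therefore below vehicle as well as below 6 µM. The log2 fold change was -1.82 against 6 µM (SE 0.18, adjusted p = 1.41e-07), a mean level 3.52-fold lower, and -1.48 against vehicle (adjusted p = 8.4e-07). Thapsigargin gave a lower level still, 1.87, 2.05 and 2.02 CPM, and AA147 gave 5.64, 7.34 and 6.86 CPM. Among 23 secreted ligands tested, EDN1, TGFB2 and CTGF fell and TNFSF9 rose, beside 3.59% of all genes tested that were called. The list median was -0.20.

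Targets of YAP and TEAD were lower at 30 µM than at 6 µM without exception in sign. All 14 members tested had a negative log2 fold change, beside 8927 of 17793 genes tested. Of the 14, 4 fell (ANKRD1, CTGF, TGFB2 and AMOTL2), beside 2.01% of all genes tested, and the list median was -0.38. Between vehicle and 6 µM the median of the same genes was 0.21, and the 2 comparisons share the 6 µM libraries. ANKRD1, a nuclear ankyrin repeat protein (chr10:90912096-90921087), was at 110, 111 and 105 CPM in vehicle, at 186, 182 and 185 CPM at 6 µM and at 112, 104 and 108 CPM at 30 µM. It stood apart at 6 µM, and at 30 µM its libraries overlapped those of vehicle. The log2 fold change was -0.77 against 6 µM (SE 0.09, adjusted p = 1.37e-05) and -0.01 against vehicle (adjusted p = 0.978). CTGF (now CCN2, chr6:131948176-131951372), a matricellular protein, followed the same course, from 457, 420 and 442 CPM at 6 µM to 275, 293 and 266 CPM at 30 µM with 334, 262 and 299 CPM in vehicle (log2 fold change -0.66, SE 0.09, adjusted p = 0.000135). TGFB2, a growth factor of the transforming growth factor family, fell by 0.91 (adjusted p = 0.00405). AMOTL2, a regulator that holds YAP in the cytoplasm, fell by 0.40 (adjusted p = 0.0167). That call was lost without 30 µM library 3, where AMOTL2 was at 27.03 CPM against 37.1 and 38.2 in the others (log2 fold change -0.26 without it, adjusted p = 0.139), and without 6 µM library 2 (0.0882). CYR61, a further matricellular target, had values of 260, 266 and 272 CPM and 213, 208 and 210 CPM with an adjusted p of 0.0501. It was called lower without the same 4 libraries outside the contrast (adjusted p = 0.00287).

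The TEAD core GGAATG was searched on both strands after the values were seen. The promoters of CTGF and ANKRD1, the called targets whose windows held the most matches, are shown with the core in capitals. Both are RefSeq windows in GRCh38.p14 on the minus strand, chr6:131951323-131951622 for CTGF with 3 matches and chr10:90921038-90921337 for ANKRD1 with 2 matches. The core was present in 14% of all windows, 14.9% of windows of genes called lower and 7.66% of windows of genes called higher. Of the other called targets, the window of TGFB2, the called target with the largest fall, held 1 match and that of AMOTL2 held none.
CTGF: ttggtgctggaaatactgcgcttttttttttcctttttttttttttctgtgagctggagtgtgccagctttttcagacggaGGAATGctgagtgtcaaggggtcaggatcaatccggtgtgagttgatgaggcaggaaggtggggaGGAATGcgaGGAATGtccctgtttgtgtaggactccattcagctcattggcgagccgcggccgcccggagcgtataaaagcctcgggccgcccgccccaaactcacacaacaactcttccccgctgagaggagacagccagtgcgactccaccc
ANKRD1: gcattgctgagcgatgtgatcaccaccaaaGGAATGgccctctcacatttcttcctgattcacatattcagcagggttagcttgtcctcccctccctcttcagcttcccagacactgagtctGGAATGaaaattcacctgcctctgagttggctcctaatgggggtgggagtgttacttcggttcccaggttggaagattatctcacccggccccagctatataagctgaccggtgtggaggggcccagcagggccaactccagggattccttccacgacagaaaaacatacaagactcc

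Many transcripts of the actin cytoskeleton also fell. A list of 30 actin and SRF genes was written after called genes had been seen, so its count describes these libraries and is no independent evidence. Of the 30, 16 fell and none was called higher, beside 2.01% and 1.58% of all genes tested. The log2 fold change was negative for 29, beside 8927 of 17793 genes tested. The list median was -0.39, beside 0.20 for the same genes between vehicle and 6 µM. TPM1, an alpha tropomyosin that coats actin filaments (chr15:63042620-63071915), was at 130, 122 and 119 CPM at 6 µM, at 86.2, 94.1 and 84.1 CPM at 15 µM and at 60.3, 68.6 and 69.3 CPM at 30 µM. Vehicle libraries, at 102, 91.4 and 101 CPM, lay above those at 30 µM. The log2 fold change was -0.91 against 6 µM (SE 0.11, adjusted p = 1.34e-05) and -0.57 against vehicle (adjusted p = 0.000994). TPM4, another tropomyosin, fell from 141, 142 and 138 CPM to 81.1, 94.7 and 86.3 CPM (log2 fold change -0.69, SE 0.10, adjusted p = 0.000135). ACTN1, the crosslinker alpha-actinin 1, fell from 335, 329 and 334 CPM to 185, 208 and 209 CPM (-0.73, SE 0.11, adjusted p = 0.000322). NEXN, an actin-binding protein, fell from 35.3, 34.8 and 36.6 CPM to 19.9, 19.7 and 20.0 CPM (-0.84, SE 0.16, adjusted p = 0.00318). In each of these 3 genes the libraries within a dose lay close together beside the gap between doses. The CArG box, a site of SRF, was searched in the promoter windows after the values were seen. It was absent from those of TPM1, ACTN1 and NEXN. It was present in 1.29% of all windows, 3.2% of windows of genes called lower and 1.8% of windows of genes called higher.

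Further members of the list fell, while MYL9, CNN1, ACTA2, TLN1, ZYX and FLNA had log2 fold changes between -0.71 (MYL9) and -0.11 (TLN1) and were not called. Of these, ZYX and FLNA were called lower without the same 4 libraries outside the contrast (adjusted p = 0.0224 and 0.00276). MYH9 and MYH10, heavy chains of non-muscle myosin, fell by 0.57 and 0.39. VCL, vinculin, which links actin to adhesions, fell by 0.54, CALD1, caldesmon, by 0.56 and CNN2, calponin 2, by 0.63. ACTG1, cytoplasmic gamma actin, was the most abundant member. Its libraries went from 5392, 5373 and 5491 CPM to 4071, 4046 and 4061 CPM (log2 fold change -0.42, SE 0.10, adjusted p = 0.0187), and this call was lost in each of the 6 fits without 1 library, at adjusted p-values of 0.0511 to 0.0690. TAGLN, transgelin, fell by 0.77 (SE 0.17, adjusted p = 0.00949), and this call was lost when 6 µM library 1, its highest library at 59.5 CPM, was left out (0.0629). The MYH10 call was lost without 30 µM library 3 or 6 µM library 1 (up to 0.0901). With 1 of the 6 libraries left out, 11 to 14 of the 30 members were called, and 11 of the 16 kept their call in all 6 such fits. Genes called lower had longer transcripts than the rest, with a median of 3946 bases over 341 genes, beside 2760 bases over 268 genes called higher and 3190 over 15423 genes tested. An offset for transcript length fitted to each library gave 909 called genes, 468 higher and 441 lower, with 7 YAP and TEAD targets and 17 actin genes called. With the offset the log2 fold changes of TPM1, ACTN1, NEXN and CTGF were -0.92, -0.72, -0.84 and -0.67, near those without it. Other falls were smaller with it, FASN at -0.23 in place of -0.29 (adjusted p = 0.157) and JAG1 at -0.26 in place of -0.30. The cause of these differences was not tested.

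**Figure D3:**
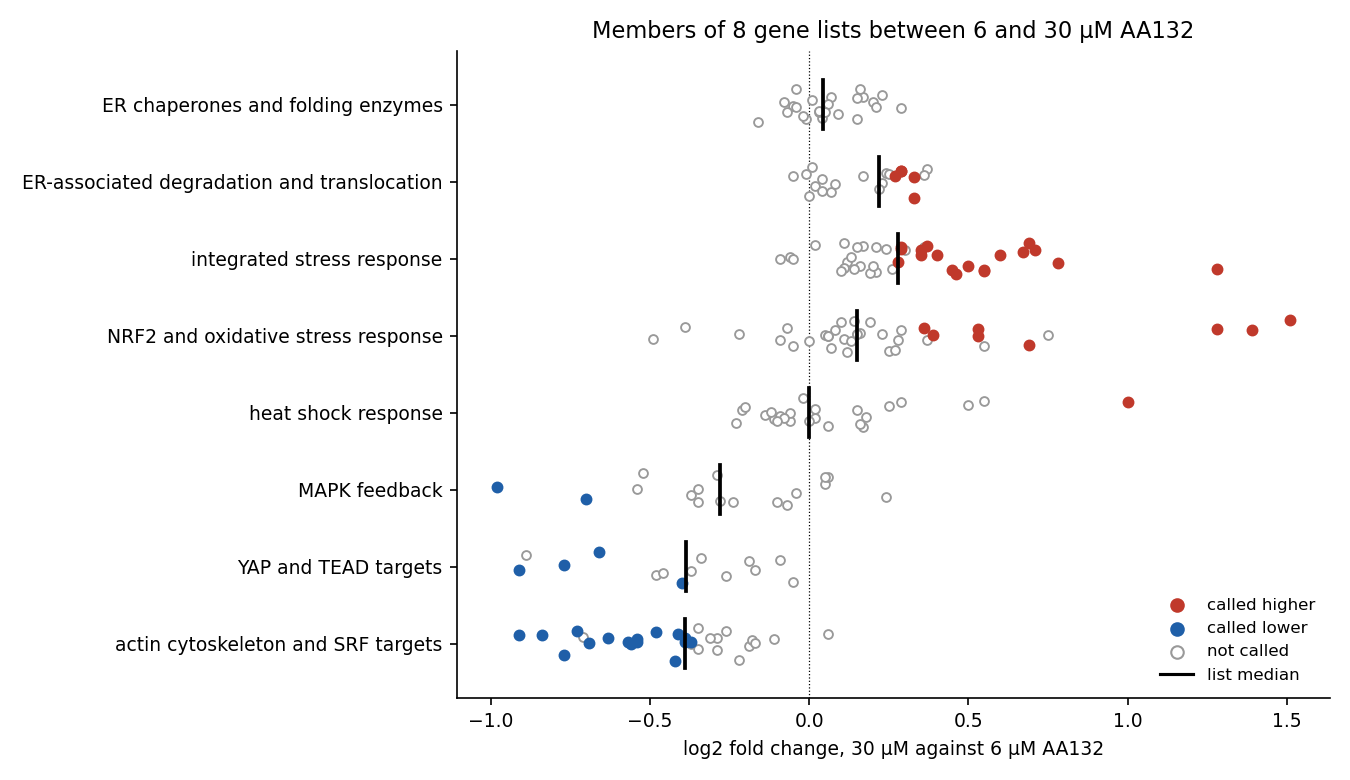
Log2 fold change of 30 µM against 6 µM AA132 (x axis) for each tested member of 8 gene lists (rows), with filled points for called genes, open points for the rest and black bars at the list medians. No ER chaperone was called, 18 of 39 integrated stress response genes and 8 of 37 NRF2 genes were called higher, and 16 of 30 actin genes were called lower, the last list having been written after called genes were seen.

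A few genes of growth signalling and of entry into replication also fell. Among 17 MAPK feedback genes, ETV4 and DUSP5 fell, beside 2.01% of all genes tested, and the list median was -0.28. ETV4, a transcription factor raised by ERK signalling, was at 11.7 to 12.9 CPM at 6 µM and at 6.02, 6.05 and 6.41 CPM at 30 µM (log2 fold change -0.98, SE 0.18, adjusted p = 0.00154). It had not risen at 6 µM, and at 30 µM it was also below vehicle, at 18.1, 11.5 and 14.2 CPM. DUSP5, a nuclear ERK phosphatase, fell by 0.70 from a level that 6 µM had raised by 0.55, and at 30 µM it did not differ from vehicle by the test (-0.15, adjusted p = 0.607). Among 24 genes of G1/S and replication, CCND1, MCM10 and MCM3 fell and CCND3 rose. As a whole this list did not shift, with a median of -0.01, 11 positive and 13 negative log2 fold changes. CCND1, cyclin D1, went from 34.2, 42.0 and 44.6 CPM to 28.7, 26.1 and 23.7 CPM (log2 fold change -0.62, SE 0.12, adjusted p = 0.00318), while MCM3, a subunit of the replicative helicase, fell by 0.15 with an adjusted p of 0.0491. The MCM3 call was lost in all 6 fits without 1 library, and those of MCM10 and CCND3 in 5 of the 6 (adjusted p up to 0.176). VIM and KRT18, intermediate filament genes taken as HEK293T markers, fell by 0.44 and 0.47 (adjusted p = 0.00149 and 0.00233).

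The other genes with the largest steps were of low abundance and mixed function. MIOX, myo-inositol oxygenase, rose from 2.63, 2.23 and 2.79 CPM to 4.29, 5.09 and 5.88 CPM (log2 fold change 1.00, adjusted p = 0.00318). SLC17A7, a vesicular glutamate transporter, rose by 1.18 with at most 1.6 CPM in any of the 6 libraries. SELENBP1, a selenium-binding protein, rose by 0.96 after a fall of 1.43 between vehicle and 6 µM, which left its 30 µM libraries below vehicle. TNFSF9, the ligand of the receptor 4-1BB, and the uncharacterised entries LOC100129503 and LOC102606465 rose by 0.75, 0.86 and 0.82. The calls of SLC17A7, SELENBP1, TNFSF9 and these 2 entries were lost in 3 to 5 of the 6 fits without 1 library, with adjusted p-values up to 0.346. Without 30 µM library 3 the log2 fold change of LOC102606465 was 0.48. KRT80, a keratin, fell from 10.3, 10.2 and 8.92 CPM to 3.94, 4.06 and 4.55 CPM (log2 fold change -1.23, SE 0.17, adjusted p = 0.000132), below its vehicle level of 6.32 to 6.84 CPM. IL7R, the interleukin 7 receptor chain, fell from 2.02, 1.91 and 1.83 CPM to 0.693, 0.517 and 0.583 CPM (-1.68, SE 0.32, adjusted p = 0.00258). NPPB, the natriuretic peptide B precursor, fell by 1.24 and CFAP45, a cilium protein, by 1.08. The NPPB call was lost without 30 µM library 3 (adjusted p = 0.0570). GNMT, MYOM1 and BMP3, which encode a glycine methyltransferase, a sarcomere protein and a bone morphogenetic protein, fell by between 1.12 (BMP3) and 1.53 (GNMT). The entries LOC105373158, LOC101927069, LOC105369205 and LOC107986558 fell by 1.67, 1.63, 1.26 and 1.17. The calls of GNMT, MYOM1, BMP3 and LOC105373158 were lost in 3 to 6 of the 6 fits without 1 library (adjusted p up to 0.162). Use of strand in counting is not given in the sources used here, so reads of such entries cannot be told apart from those of genes that overlap them.

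Several programs showed no or few calls between the doses. None of 24 p53 and apoptosis genes, 31 proteasome subunits, 20 G2/M genes, 32 ribosomal protein genes, 26 nuclear respiratory chain genes or 5 tested metallothionein and zinc genes was called by edgeR, and 3, 2, 3, 5, 6 and 2 of them had an unadjusted p under 0.05. Over all 17793 genes tested, 3.59% were called and 3060 had an unadjusted p under 0.05. At that share, lists as short as those in this paragraph would hold few calls or none. The largest differences in these lists were 0.45 for TP53INP1, 0.16 for PSMA3, 0.21 for CDC25C, 0.25 for RPSA, 0.37 for COX6C and 0.63 for MT1G. COX6C had an adjusted p of 0.0508, and with the transcript length offset COX6C and RPSA were called (0.0146 and 0.0197). In the fit without the same 4 libraries outside the contrast, BCL2L11, COX6C, COX6A1, RPSA and MT1X were called higher and RPL3 lower. Their adjusted p-values were 0.0133, 0.00702, 0.0400, 0.0191, 0.0299 and 0.0270. All 5 metallothionein and zinc genes had a positive log2 fold change, with a median of 0.39, beside 8860 of 17793 genes tested that were positive. Of 18 autophagy genes, SQSTM1 and GABARAPL1 rose and BECN1 fell. Of 24 genes of sterol and fatty acid synthesis, FASN and ACLY fell by 0.29 and 0.18, and the FASN call was also lost with the transcript length offset (-0.23, adjusted p = 0.157). Of 25 immediate early genes only NR4A2, a nuclear receptor, was called (0.56, adjusted p = 0.00183). Of 12 Notch genes JAG1 fell by 0.30, and of 12 genes of the BMP, TGF-beta and ID list NOG fell by 0.72. SLC2A1, the main glucose transporter, rose by 0.32 and ARRDC3, an arrestin-domain protein, by 0.64. Of the 10 calls named here from SQSTM1 to ARRDC3, only that of NR4A2 held in all 6 fits without 1 library. The others were lost in 2 to 6 of these fits, with adjusted p-values up to 0.198. CYP1A1 and CYP1B1, targets of the aryl hydrocarbon receptor AHR, had fallen by 2.32 and 1.46 between vehicle and 6 µM, and between 6 and 30 µM they differed by 0.57 and 0.53 with adjusted p-values of 0.426 and 0.232. Among 13 mitochondrially encoded mRNAs, a list added after called genes had been seen, 3 (ND3, ND4 and ND5) rose, with a median of 0.39. Each of these 3 calls was lost in 5 of the 6 fits without 1 library (adjusted p up to 0.228).

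The levels of 5 lists in each library show how the 2 directions unfolded with dose. On the log2 scale relative to the 6 µM mean, the median ER chaperone was at -0.32, -0.47 and -0.51 in the vehicle libraries and at 0.03, 0.05 and 0.07 at 30 µM. The integrated stress response list moved from -0.26 to -0.24 in vehicle to between 0.27 and 0.32 at 30 µM. The actin list was between -0.24 and -0.15 in vehicle and at -0.41, -0.41 and -0.40 at 30 µM, so it lay below its vehicle level at the highest dose. The 30 µM libraries of each of these 3 lists did not overlap with those of 6 µM. In the fit without the same 4 libraries outside the contrast, chosen after seeing the data, more members were called. That fit called 1692 of 18038 genes tested, 745 higher and 947 lower. There 23 of 39 integrated stress response, 14 of 37 NRF2 (13 higher and 1 lower), 9 of 14 YAP and TEAD and 22 of 30 actin genes were called. So were 9 of 21 genes of degradation and translocation, 7 of 23 secreted ligands, 6 of 13 mitochondrially encoded mRNAs and 5 of 17 MAPK feedback genes.

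**Figure D4:**
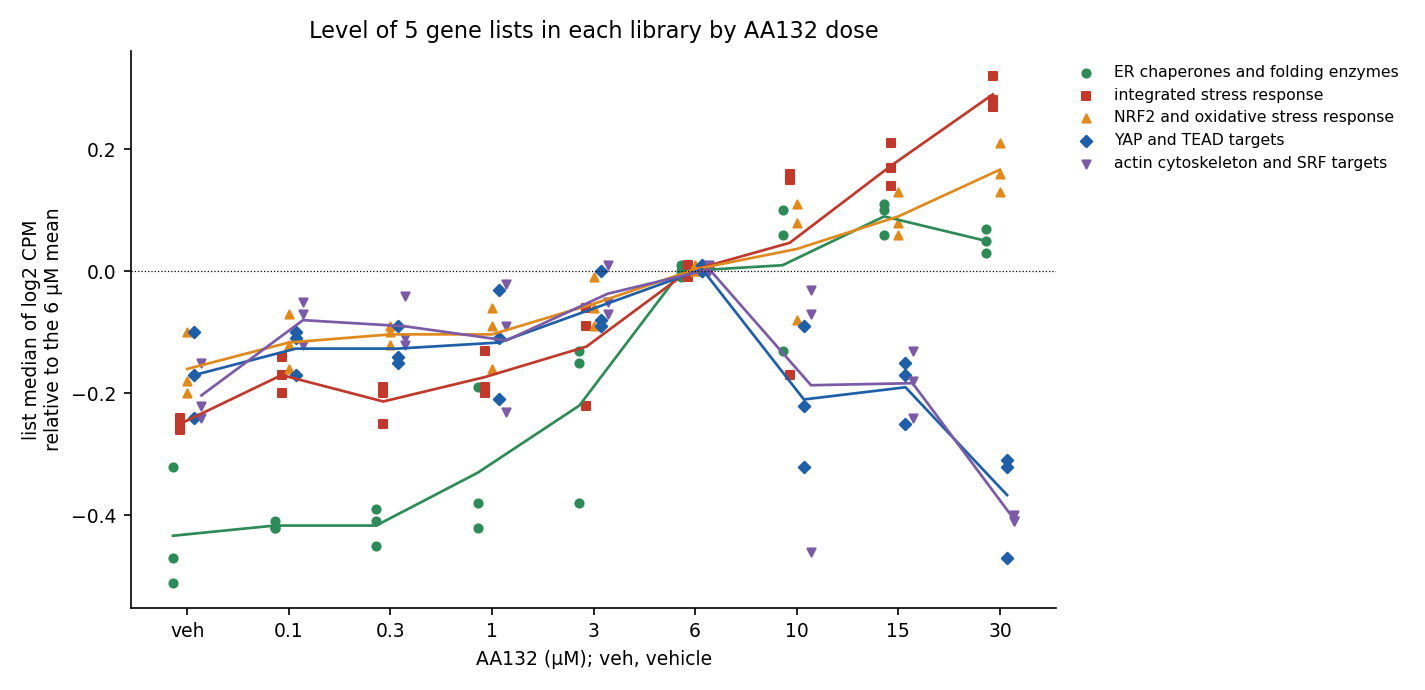
Median log2 CPM of the members of 5 gene lists, relative to each gene's mean at 6 µM (y axis), in each library (points) and as a mean of 3 libraries (lines) across vehicle (veh) and AA132 doses (x axis). ER chaperones rose up to 6 µM and stayed near 0 above it, the integrated stress response and NRF2 lists were higher at 30 µM than at 6 µM, and the YAP and actin lists were lower, while some libraries at 1, 3 and 10 µM lay away from the others of their dose.

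The steps on either side of 15 µM were not called singly. No gene was called between 6 and 15 µM or between 15 and 30 µM by edgeR, where 934 and 1256 genes had an unadjusted p under 0.05, and DESeq2 called 14 and 8. The mean at 15 µM lay between the means at 6 and 30 µM for 279 of the 281 genes called higher and for 353 of the 357 called lower. The genes called higher had a median log2 fold change of 0.16 from 6 to 15 µM and of 0.18 from 15 to 30 µM, and those called lower of -0.16 and -0.22. These values describe genes selected on their end points.

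Against vehicle, 1255 genes (7.05%) were called at 30 µM, 687 (3.86%) higher and 568 (3.19%) lower. Of the 281 genes called higher between 6 and 30 µM, 152 were also called higher at 30 µM than in vehicle, 129 were not called and none was called lower. Of these 281, 12 had been called higher at 6 µM (HMOX1 and SLC7A11 among them), 3 called lower and 266 not called. Over all genes tested, 0.866% were called higher and 0.202% lower at 6 µM than in vehicle. Of the 281, 176 had a negative log2 fold change between vehicle and 6 µM. Their median there was -0.05 over the 281, beside -0.0001 over all genes tested. Of the 357 genes called lower, 163 were below vehicle at 30 µM, 194 were not called against vehicle and none was called higher. Of the 357, 289 had a positive log2 fold change between vehicle and 6 µM, with a median of 0.11 over the 357. There 14 were called higher and none lower, beside the same shares of 0.866% and 0.202%. Vehicle library 1, which stood apart by transcript length, is part of these values. These comparisons share the 6 or 30 µM libraries with the selection of the genes, so the counts place each gene beside vehicle and are not separate tests of the change.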

How the data were processed

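Total RNA of HEK293T cells was sequenced after 6 h of treatment. The authors deposited 1 table of expected counts (estimated reads per gene, linear scale per the file headers, not scaled between libraries) with 33 columns, 3 numbered ones for each of 11 conditions. GRCh38.p7 is named in the submitters' processing notes; the aligner, counting tool, annotation and use of strand are not given in the sources used here. The value 0.009 stood in place of 0 in 43.5% of cells and was set to 0. Of 38074 entries, 98 that share 45 names were summed, 28 named as dates were kept in totals only, and counts were rounded. Totals were 32.27 to 37.96 M counts per library, and reads are not independent molecules, so depth bounds counting error only.

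Tests were made in R 4.3.3 with edgeR 4.0.16 and its quasi-likelihood F statistic (TMM, filterByExpr, 17793 genes, Benjamini-Hochberg), fitted to all 33 libraries with no replicate block; standard errors were taken from the F statistic. All adjusted p-values are from it unless DESeq2 1.42.0 is named. Tested on simulated data for 30 µM against 6 µM, it found 32.5%, 63.5% and 76.5% of the genes changed by a factor of 1.3, 1.5 and 2. False calls made up 4.41 to 4.97%, and with no gene changed there were none. The simulated spread followed the trend with abundance alone, with no outlying library and no effect of transcript length. These rates may therefore not hold for the real libraries. Named genes were HMOX1, SLC7A11 and EDN1, the 12 largest called rises and falls with at least 1 CPM and no overlap of libraries, a set of 22 stress response genes, and up to 4 called members of each list (the largest difference where none was called). Of these, 1 is not reported here. Further members are named where a count calls for it and were chosen after their values were seen. Members, lists and tests were all chosen with earlier results of these data known. Gene positions and transcript lengths come from GENCODE v44 (GRCh38), which may differ from the annotation behind the counts. Of 86 named genes, 56 matched a RefSeq promoter window. HMOX1, SLC7A11 and TAGLN had none. The same column numbers at 30 and 6 µM did not pair the libraries (correlations of deviations 0.011, 0.019 and 0.032). Alternatives were other normalization, filters, samples in the fit, DESeq2, a block, a length offset and libraries left out.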

Additional observations from a re-analysis of the deposited data

How the results depend on the processing

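The named genes kept the sign of their log2 fold change between 6 and 30 µM wherever they were tested in the 43 alternatives run on that comparison (86 genes), and 180 of these values lost a call. Many alternatives kept the same 6 libraries. For genes picked for no overlap of libraries, leaving out 1 library could hardly reverse the sign. The kept sign is therefore no separate evidence. Of the 638 genes called there, DESeq2 size factors gave 632, no filter on low counts 748 (490 shared), a minimum of 10 counts 630, and a replicate block, whose numbers do not pair the libraries, 633, of which 600 were shared. The calls fell to 29 with a log2 fold change of at least 1, and rose to 1011 with DESeq2, to 1150 with only the 8 AA132 doses, to 1310 with only the 2 conditions and to 1692 without vehicle library 1, 1 µM library 1, 3 µM library 3 and 10 µM library 1, an alternative chosen after seeing the data. Leaving out 1 library gave 198 (6 µM library 1) to 1205 (vehicle library 1). The length offset gave 909 and leaving out both 30 µM library 3 and vehicle library 1 gave 848, both also chosen after seeing the data. Between 15 and 30 µM, where no gene was called, 56 were called with no filter, 2 with only the 2 conditions and 8 with DESeq2. Between 6 and 15 µM, also at 0, the same settings gave 69, 83 and 14, the AA132 doses alone gave 3, and leaving out 1 library gave 0 to 1. For 6 µM against vehicle the 190 calls became 360 with no filter, 25 with only the 2 conditions, 346 with DESeq2, 16 at a log2 fold change of at least 1, and 95 (6 µM library 1) to 506 (vehicle library 1) without 1 library. For 30 µM against vehicle the 1255 calls became 74 with only the 2 conditions, 87 at a log2 fold change of at least 1, and 700 (30 µM library 1) to 2017 (vehicle library 1) without 1 library. The cause of these shifts was not tested.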
